A study of Mus musculus with 6 samples.

Results

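The 5p arms of the miR-99/100, miR-125 and miR-10 families were measured in progenitor cells grown from the bone marrow of db/db and db/+ mice. The 7 members are mmu-miR-99a-5p, mmu-miR-99b-5p, mmu-miR-100-5p, mmu-miR-125a-5p, mmu-miR-125b-5p, mmu-miR-10a-5p and mmu-miR-10b-5p, written below without the mouse prefix. They were found by exact probe name, and all 7 were present among the 1900 mouse miRNA probes of the array. The study compared 3 samples of cells from db/db mice, which carry the diabetes mutation of the leptin receptor in both copies and become obese and type 2 diabetic, with 3 samples from db/+ litter controls of the same colony, which carry it in a single copy. All mice were adult males. In both groups marrow mononuclear cells were held in endothelial growth medium for 4 days, freed of non-adherent cells and cultured for 3 more days, so the RNA came from an unsorted adherent culture. The samples were labelled with Cy5 from 1 µg of total RNA and read on 1 array each. Whether the samples are separate animals is not stated in the labels, and p-values measure only the spread between these samples, which may be technical.

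MicroRNAs are short RNAs that guide Argonaute proteins to messenger RNAs, mainly through the seed, the stretch from base 2 to base 8. MiR-99 and miR-100 are known as repressors of Mtor and of the insulin-like growth factor receptor. The miR-125 family acts in haematopoietic stem cells, represses Lin28 and Trp53, and is the vertebrate counterpart of lin-4 of Caenorhabditis elegans. MiR-10a and miR-10b lie within Hox gene clusters and repress Hox genes, and miR-10 has been tied to vessel growth in zebrafish and to inflammatory signalling in endothelial cells. The miR-99/100 and miR-125 genes lie together with let-7 genes in 3 clusters. The precursor of miR-125b has been reported as a substrate of IRE1, the stress sensor of the endoplasmic reticulum that the study is about.

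The mature sequences are shown because the 3 families are told apart by their seeds and because close relatives differ by very few bases. They run 5′ to 3′ as the array files give them, with the seed in capitals, and all are identical to the RefSeq entries of the same name.
miR-99a-5p: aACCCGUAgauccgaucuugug
miR-99b-5p: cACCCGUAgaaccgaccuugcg
miR-100-5p: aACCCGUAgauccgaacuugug
miR-125a-5p: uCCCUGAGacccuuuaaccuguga
miR-125b-5p: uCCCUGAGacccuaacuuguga
miR-10a-5p: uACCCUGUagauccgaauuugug
miR-10b-5p: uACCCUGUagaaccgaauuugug
miR-351-5p: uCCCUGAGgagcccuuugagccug
miR-6367: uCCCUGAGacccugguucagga

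MiR-351-5p, miR-6367 and miR-6394 are the only other probes of the array that share a member's seed, which is that of miR-125, and the first 2 of them are shown for comparison. Counted from 1 at the 5′ end, the change that turns miR-99a-5p into miR-100-5p is U16A, so that 21 of 22 bases are shared. The change that turns miR-10a-5p into miR-10b-5p is U12A, with 22 of 23 bases shared. MiR-99a-5p and miR-99b-5p differ by A1C, U11A, U16C and U21C. MiR-125a-5p has 24 bases and miR-125b-5p has 22, and their longest common run is 13 bases. MiR-10a-5p and miR-100-5p, of different seeds, still share a run of 11 bases. Whether the probes tell such relatives apart was not tested.

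In RefSeq's GRCm38.p6 the mature miR-99a-5p lies on the plus strand at chr16:77598940-77598961 and a copy of miR-125b-5p, from Mir125b-2, at chr16:77646279-77646300. The other copy of miR-125b-5p, from Mir125b-1, lies at chr9:41581940-41581961, and miR-100-5p at chr9:41531437-41531458, both within the long non-coding gene Mir100hg. MiR-99b-5p at chr17:17830194-17830215 and miR-125a-5p at chr17:17830817-17830840 start only 623 bases apart, within the span of Spaca6, with let-7e-5p between them. On chromosome 16, 47339 bases separate the starts of miR-99a-5p and miR-125b-5p, and on chromosome 9, 50503 bases separate those of miR-100-5p and miR-125b-5p. MiR-10a-5p lies at chr11:96317186-96317208 within the span of Hoxb3 and between Hoxb5 and Hoxb4, and miR-10b-5p at chr2:74726074-74726096 within the spans of Hoxd3 and Hoxd4. All are on the plus strand. The array has a single miR-125b-5p probe, so the 2 genes that give this miRNA cannot be told apart by it.

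The arrays differed in brightness. Median scanner signals over all miRNA probes were between 57.9 and 67.9 on the db/db arrays and between 50.1 and 104.9 on the db/+ arrays, and the median of the 4 blank spots between 44.0 and 73.0 on the db/db arrays and between 39.1 and 97.2 on the db/+ arrays. Spot signals were therefore background-corrected, quantile-normalized and put on the log2 scale, and groups were compared with limma over all probes detected on at least 3 of 6 arrays. Detected means a mean signal of the 2 spots above the 95th percentile of the blanks. All 7 members were detected on all 6 arrays and tested, among 1181 tested probes. Log2 differences are db/db minus db/+, and an adjusted p is Benjamini-Hochberg over all tested probes. With 3 arrays a group, their number sets the precision. Between 751 and 1855 probes a db/db array, and between 971 and 1701 a db/+ array, were above the blanks. The highest counts, on db/db replicate 1 and db/+ replicate 3, took in most of the 1900 probes. Detection on these arrays therefore tells little about a dim probe.

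For none of the 7 members was a difference between db/db and db/+ cells detected beyond the spread of the arrays. With limma 0 of 7 passed an adjusted p of 0.05, beside 0% of all tested probes, and 0 of 7 had an unadjusted p under 0.05, against 5% of the tested probes. The readings of the 3 miR-99/100 members and both miR-125 members had log2 differences below 0, and both miR-10 members had log2 differences above 0. That makes 5 of 7 below 0, with a median of -0.26, where 54.3% of all tested probes lay below 0 and their median was -0.02. The members' median depended on db/db replicate 3: without that array it was -0.049, and miR-125a-5p turned to 0.10. MiR-99b-5p, miR-100-5p and miR-125b-5p were then still below 0, at -0.28, -0.25 and -0.27. MiR-10a-5p and miR-10b-5p were above 0, at 0.52 and 0.68. With cyclic loess normalization the members' median was -0.12. The 3 db/db values lay wholly below the 3 db/+ values for 2 of 7 members, miR-100-5p and miR-125b-5p, where 9.65% of all tested probes had groups that did not overlap.

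**Figure D1:**
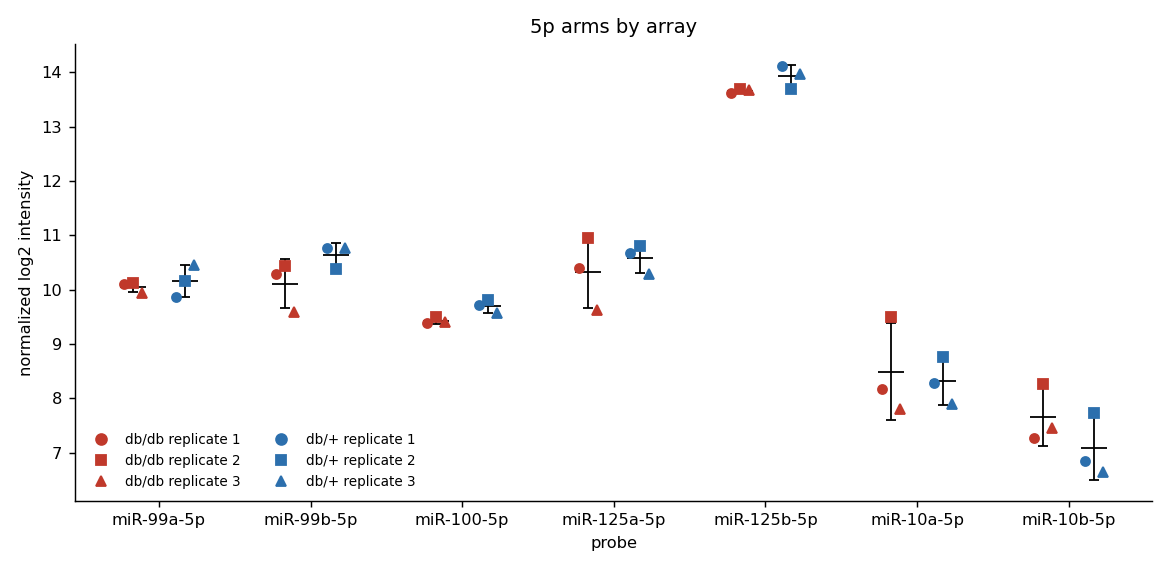
Normalized log2 intensity (vertical axis) of each 5p probe on each array, with 3 db/db arrays (red) and 3 db/+ arrays (blue) per probe; bars give the mean and SD of each group. The groups are apart only for miR-100-5p and miR-125b-5p, by small margins, and db/db replicate 2 stands above the other arrays for miR-10a-5p and miR-10b-5p.

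In the miR-99/100 family, miR-99a-5p had normalized log2 intensities of 10.10, 10.12 and 9.95 in db/db cells, against 9.86, 10.16 and 10.46 in db/+ cells. The db/db values lay inside the range of the db/+ values. The means were 10.06 ± 0.09 in db/db and 10.16 ± 0.30 in db/+ cells (SD, n = 3 each), a log2 difference of -0.10 (SE 0.18) with a limma adjusted p of 0.92. Its sign turned without db/+ replicate 3, the array with the highest reading, where the difference was 0.047.

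MiR-99b-5p, from a different cluster, had 10.29, 10.44 and 9.60 in db/db cells, against 10.76, 10.39 and 10.76 in db/+ cells. Here db/db replicate 3 was the lowest array, and db/db replicate 2 was above db/+ replicate 2, so the groups overlapped. The log2 difference was -0.53 (SE 0.24), the lowest of the members, with a 95% interval of -1.11 to 0.05 and a limma adjusted p of 0.89. Without db/db replicate 3 it was -0.28.

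MiR-100-5p had 9.39, 9.51 and 9.40 in db/db cells, against 9.72, 9.81 and 9.56 in db/+ cells. All 3 db/db arrays were below all 3 db/+ arrays, with the closest readings on db/db replicate 2 and db/+ replicate 3. The means were 9.43 ± 0.06 in db/db and 9.70 ± 0.12 in db/+ cells (SD, n = 3 each). The log2 difference of -0.26 (SE 0.13) had a 95% interval of -0.56 to 0.03, which is 0.678 to 1.02 times the db/+ level, and a limma adjusted p of 0.89. In the authors' own value table the same samples read 591, 575 and 618 in db/db cells, against 619, 821 and 615.4 in db/+ cells, and there the groups overlapped.

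In the miR-125 family, miR-125b-5p had mean scanner signals of 10182, 16417 and 11129 in db/db cells, against 23039.5, 16661 and 9207 in db/+ cells, at least 152 times the blanks of the same array. After normalization these were 13.63, 13.69 and 13.68 in db/db cells, against 14.11, 13.69 and 13.98 in db/+ cells. The db/db values were close to each other, with an SD of 0.03 against 0.22 in db/+ cells, and db/+ replicate 2 lay just above them. By scanner signal miR-125b-5p ranked between 5 and 11 among the 1900 probes. Quantile normalization sets a value by its rank, so this SD and the small gap reflect ranks among a few very bright probes. The log2 difference was -0.26 (SE 0.15) with a limma adjusted p of 0.89, and its 95% interval of -0.60 to 0.08 corresponds to 0.658 to 1.06 times the db/+ level. In the authors' value table miR-125b-5p read 13147, 13654 and 12649 in db/db cells, against 15340 (15339.6 before rounding), 13607 and 16478 in db/+ cells, where the groups overlapped.

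MiR-125a-5p, the cluster partner of miR-99b-5p, had 10.41, 10.95 and 9.64 in db/db cells, against 10.67, 10.81 and 10.28 in db/+ cells. The highest and the lowest of the 6 values were both in db/db cells, on replicates 2 and 3. The log2 difference was -0.26 (SE 0.33) with a limma adjusted p of 0.91, and without db/db replicate 3 it had the opposite sign, at 0.10. Its difference equalled that of miR-125b-5p to 2 decimals, while its SD in db/db cells was 0.66.

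In the miR-10 family, miR-10a-5p had normalized log2 intensities of 8.17, 9.50 and 7.82 in db/db cells, against 8.28, 8.77 and 7.89 in db/+ cells. Replicate 2 was the highest array in each group, and the groups overlapped. The means were 8.49 ± 0.89 in db/db and 8.31 ± 0.44 in db/+ cells (SD, n = 3 each), a log2 difference of 0.18 (SE 0.45) with a limma adjusted p of 0.96. Its direction rested on db/db replicate 2: without it the log2 difference was -0.32, and without db/+ replicate 3 it was -0.033.

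MiR-10b-5p had mean scanner signals of 119.7, 316 and 167 in db/db cells, against 157, 228 and 56.2 in db/+ cells, or 1.44 to 5.60 times the blanks of the same arrays. The normalized log2 intensities were 7.27, 8.27 and 7.45 in db/db cells, against 6.86, 7.74 and 6.65 in db/+ cells. Db/+ replicate 2 lay above db/db replicates 1 and 3, so the groups overlapped. The log2 difference of 0.58 (SE 0.36) was the highest of the members, with a 95% interval of -0.28 to 1.44 and a limma adjusted p of 0.89. The offset of 50 that the background correction adds compresses the differences of so dim a probe. In the authors' value table the log2 difference was 0.87 and after subtraction of the blank median it was 1.31, without passing in either. It was smaller without db/db replicate 2, at 0.27, with array weights, at 0.32, and without db/+ replicate 3, at 0.38.

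**Figure D2:**
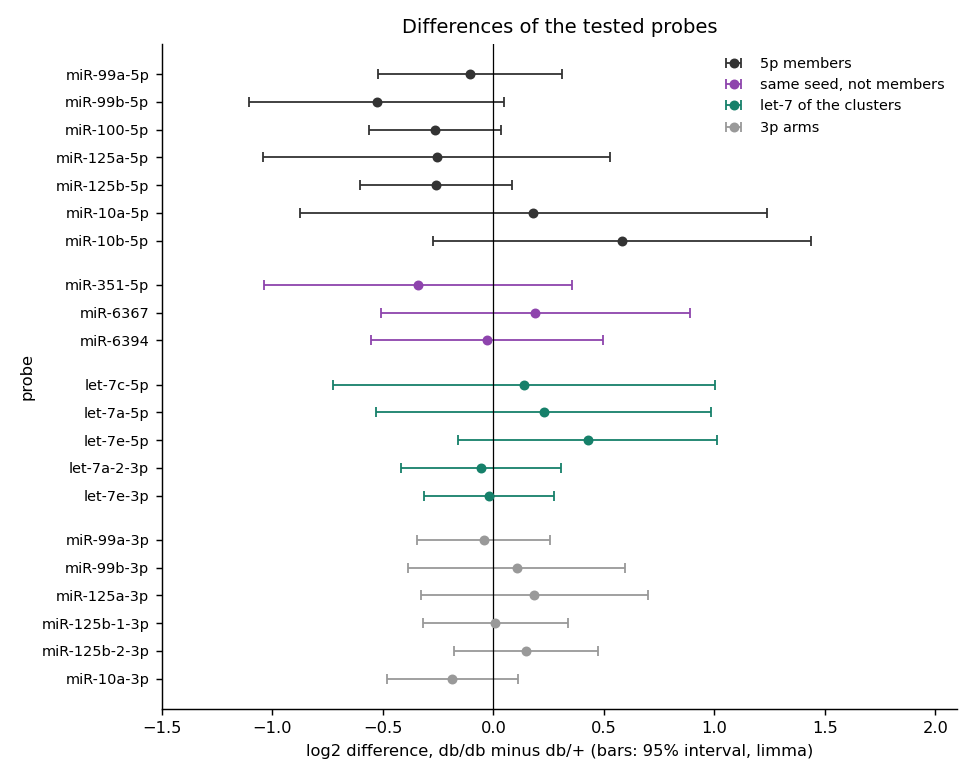
Log2 difference between db/db and db/+ cells (horizontal axis, points) with its 95% interval from limma (bars) for the 7 members, the 3 other probes with the miR-125 seed, the 5 tested let-7 probes of the clusters and the 6 tested 3p arms. Every interval crosses 0, from -0.53 for miR-99b-5p to 0.58 for miR-10b-5p among the members.

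Relatives were also compared within each array, which removes an array effect only where it is equal for both probes. For 8 pairs the log2 ratio of 2 members was set between the groups with an exact two-sided permutation test, in which 3 against 3 arrays cannot go below 0.10. MiR-10a-5p against miR-10b-5p had a difference in log2 change of -0.40 and an exact p of 0.20. MiR-99a-5p against miR-99b-5p had 0.42 and an exact p of 0.30. For miR-125a-5p against its cluster partner miR-99b-5p the difference was 0.27 with an exact p of 0.40, and for miR-125b-5p against miR-100-5p it was 0.0044 with an exact p of 1. The ratios of the groups overlapped in all 8 pairs, and the Benjamini-Hochberg adjusted p was at least 0.80. No unequal change between relatives was detected, in a design that could not have passed 0.05.

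The 3p arms of the same hairpins, which usually are the less abundant strand, were near the blanks. Of 8 such probes 6 were tested and 2, miR-99b-3p and miR-125a-3p, were detected on all 6 arrays. These 2 had log2 differences of 0.11 and 0.19 (SE 0.21 and 0.22). The 6 tested 3p arms lay between -0.19 for miR-10a-3p and 0.19 for miR-125a-3p, with a median of 0.06, and 0 passed or had an unadjusted p under 0.05. The highest reading of any 3p arm was 3.02 times the blank median. MiR-100-3p and miR-10b-3p, each detected on 2 arrays, were not tested. Their db/db values lay wholly below their db/+ values, but at no more than 1.16 times the blank median.

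The let-7 probes of the clusters stand for miRNAs that repress growth genes such as Ras, and let-7a-5p and let-7c-5p also come from other loci. Let-7e-5p, which starts 172 bases after miR-99b-5p and before miR-125a-5p, had 8.80, 9.56 and 8.81 in db/db cells, against 8.50, 8.92 and 8.47 in db/+ cells. Its log2 difference of 0.43 (SE 0.25) had the opposite sign to those of its neighbours, -0.53 and -0.26, and did not pass, at a limma adjusted p of 0.89. Let-7c-5p and let-7a-5p had log2 differences of 0.14 and 0.23. Of 6 listed let-7 probes 5 were tested, with a median of 0.14, and 0 passed.

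Among the other carriers of the miR-125 seed, miR-351-5p had a log2 difference of -0.34 (SE 0.29), miR-6367 of 0.19 and miR-6394 of -0.03. All 3 were tested and 0 passed. Of the Hox cluster miRNAs beside miR-10, miR-196a-5p, miR-196b-5p and miR-615-3p had log2 differences of -0.15, -0.21 and -0.16, also with 0 of 3 passing. Both miR-196 probes were detected on 5 of 6 arrays, with lowest readings of 0.81 times the blank median for miR-196a-5p and 0.84 for miR-196b-5p. None of these seed carriers and Hox cluster miRNAs had groups that did not overlap.

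Among the 4 miRNAs listed as reported IRE1 substrates, 0 of the 3 beside miR-125b-5p passed. MiR-17-5p had a log2 difference of -0.25 (SE 0.32) and miR-34a-5p of 0.11 (SE 0.33). MiR-96-5p, at no more than 1.41 times the blanks, had -0.09. With miR-125b-5p 3 of 4 lay below 0 and 0 passed, and the median was -0.17.

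The labelled cell type was set against marker miRNAs. The endothelial miR-126a-3p was detected on all 6 arrays and its 5p arm on 1. Both arms of miR-142a, a marker of blood cells, both arms of the myeloid miR-223 and the erythroid miR-451a were also detected on all 6 arrays, as were all 6 stromal probes. The muscle miRNA miR-206-3p was detected on all 6 arrays too, at 2.83 to 6.95 times the blanks. The other muscle probes miR-1a-3p and miR-133a-3p, the liver and neuron probes miR-122-5p, miR-124-3p and miR-9-5p, the epithelial probes, the lymphoid miR-150-5p and the erythroid miR-486a-5p and miR-144 probes were near the blanks. In bulk RNA fewer cells of a type and less miRNA per cell cannot be told apart.

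None of these markers passed, and markers of blood cells had differences in both directions. The endothelial miR-126a-3p had a log2 difference of -0.33 (SE 0.26) with a limma adjusted p of 0.89, and its groups overlapped. The 6 stromal probes, of miR-199a, miR-199b, miR-214, miR-143 and miR-145a, had a median log2 difference of -0.47, with 5 of 6 below 0 and 0 passing. Their mean log2 intensity ranged from 10.38 to 11.007 on the db/db arrays and from 11.012 to 11.38 on the db/+ arrays. The groups were thus apart by a very small margin. Of the 6 probes 1, miR-214-3p, had groups that did not overlap, where 9.65% of all tested probes did. The summed scanner signal of the 6 probes ranged from 9021 to 17314 on the db/db arrays and from 8243 to 27436 on the db/+ arrays. MiR-142a-3p and miR-142a-5p had log2 differences of 0.95 and 0.68, and the mean of both ranged from 9.13 to 10.37 in db/db and from 7.82 to 9.27 in db/+ cells, with summed signals of 1007 to 2987 in db/db and 648 to 1655 in db/+ cells. MiR-223-3p had a log2 difference of 0.55, while the other arm, miR-223-5p, had -0.47, with groups that did not overlap and an unadjusted limma p of 0.019 (adjusted p = 0.89). The erythroid miR-451a had -0.60 (SE 0.79) and miR-486a-5p -0.13, the second with groups that did not overlap, and the lymphoid miR-150-5p had -0.14. Db/db replicate 3, the lowest array for miR-99b-5p and miR-125a-5p, was also the lowest for the stromal mean and the highest for the miR-142a mean. The part of the cell mixture in the members' values was not tested.

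The profiles of the members over the 6 arrays were compared by the root mean square difference in log2 units, each profile taken less its own mean, among the 671 probes detected on all arrays. The nearest pair of members was miR-100-5p and miR-125b-5p at 0.18, encoded in the same cluster on chromosome 9, and miR-125b-5p ranked 67 of 670 probes by nearness to miR-100-5p. MiR-99a-5p and miR-100-5p, a single base apart, stood at 0.24, and miR-100-5p ranked only 158 of 670 by nearness to miR-99a-5p. MiR-10a-5p and miR-10b-5p stood at 0.34, where the median probe stood 0.63 from miR-10a-5p. By nearness to miR-10a-5p, miR-10b-5p ranked 18 of 670, behind miR-125a-5p of another family, which ranked 16. MiR-125a-5p was nearer to miR-99b-5p, at 0.33, than to its seed partner miR-125b-5p, at 0.45, and as near to miR-10a-5p, at 0.34. The most distant members were miR-99b-5p and miR-10b-5p at 0.77. These distances share arrays and normalization and are small for any probe that varies little, so they describe these 6 arrays only.

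**Figure D3:**
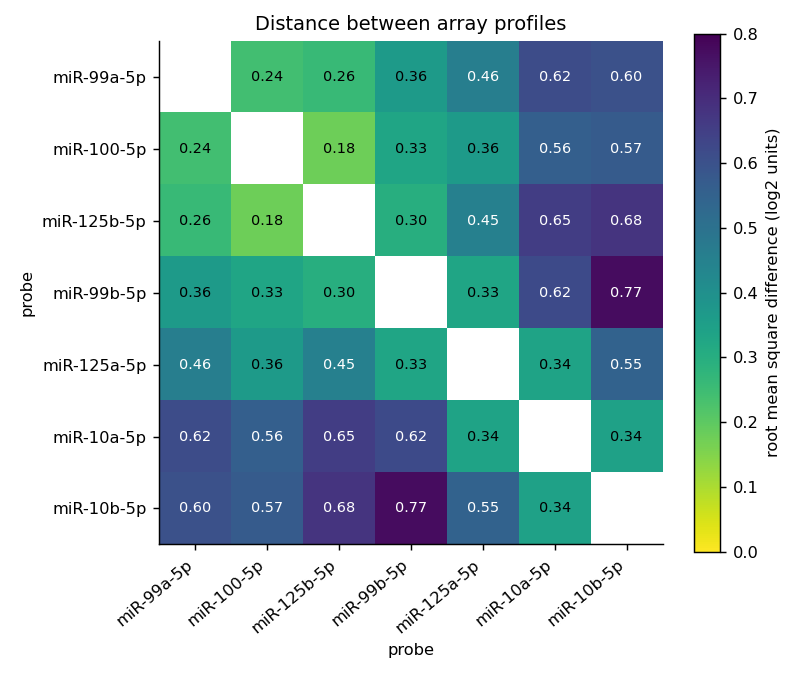
Root mean square difference between the array profiles of each pair of members (colour and printed value, log2 units, over 6 arrays), each profile taken less its own mean. MiR-99a-5p, miR-100-5p and miR-125b-5p stand between 0.18 and 0.26 from each other. Their own root mean square about the mean is only 0.19, 0.15 and 0.18, so such distances do not need a shared profile. Apart from miR-125a-5p with miR-10a-5p, at 0.34, every pair of a miR-10 member with a member of another family stands at 0.548 or more.

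Outside the families, the probe nearest to miR-10a-5p was let-7f-5p at 0.15 and that nearest to miR-10b-5p was let-7e-5p at 0.22. Both let-7 probes had their highest value on db/db replicate 2 and, among the db/+ arrays, on replicate 2. MiR-328-3p was nearest to miR-99a-5p at 0.031, miR-322-3p to miR-99b-5p at 0.10, miR-1906 to miR-100-5p at 0.080, miR-1894-3p to miR-125a-5p at 0.16 and miR-3102-5p.2-5p to miR-125b-5p at 0.084.

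Each value is the mean of 2 spots, and their agreement shows the technical error within an array. The second spot was brighter than the first on all 6 arrays for miR-99a-5p, miR-99b-5p, miR-10a-5p and miR-10b-5p, as it was for 13.6% of the 671 probes detected on all arrays. For miR-99b-5p the ratio of the second to the first spot ranged from 1.17 to 1.94 and for miR-10a-5p from 1.21 to 1.63. For miR-100-5p it ranged from 0.90 to 1.17 and for miR-125b-5p from 0.711 to 1.22. With the first spot alone miR-99b-5p had a log2 difference of -0.49 and miR-125b-5p of -0.15, and with the second alone -0.56 and -0.37.

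**Figure D4:**
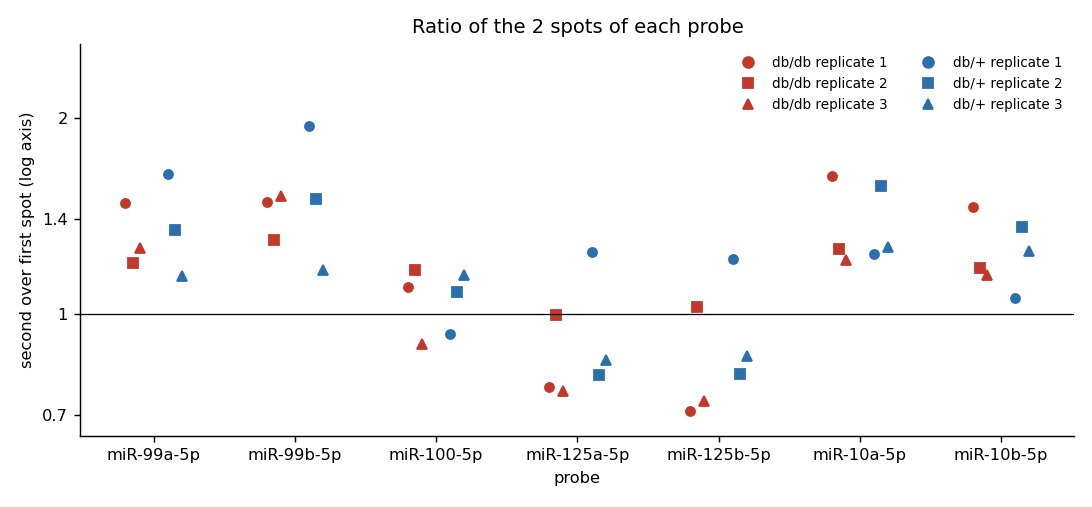
Ratio of the scanner signals of the second to the first spot of each member (vertical log axis) on each db/db array (red) and db/+ array (blue). All points lie above 1 for miR-99a-5p, miR-99b-5p, miR-10a-5p and miR-10b-5p, and the highest ratio is 1.94, for miR-99b-5p on db/+ replicate 1.

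The differences were recomputed under 21 other settings of processing, fit and arrays, in none of which a member passed. The sign held in all 21 for miR-99b-5p, between -0.68 and -0.28, for miR-100-5p, between -0.33 and -0.16, for miR-125b-5p, between -0.40 and -0.15, and for miR-10b-5p, between 0.27 and 1.31. It turned in at least 1 setting for miR-99a-5p, miR-125a-5p and miR-10a-5p. Some of the 21 settings could not change a difference or its sign. These were the 2 changes of filter, the trend and robust variance and the replicate block, which returned the reported differences. The separation of the groups did not hold as widely: over 10 settings with all arrays it was present in 5 for miR-100-5p and in 4 for miR-125b-5p.

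**Figure D5:**
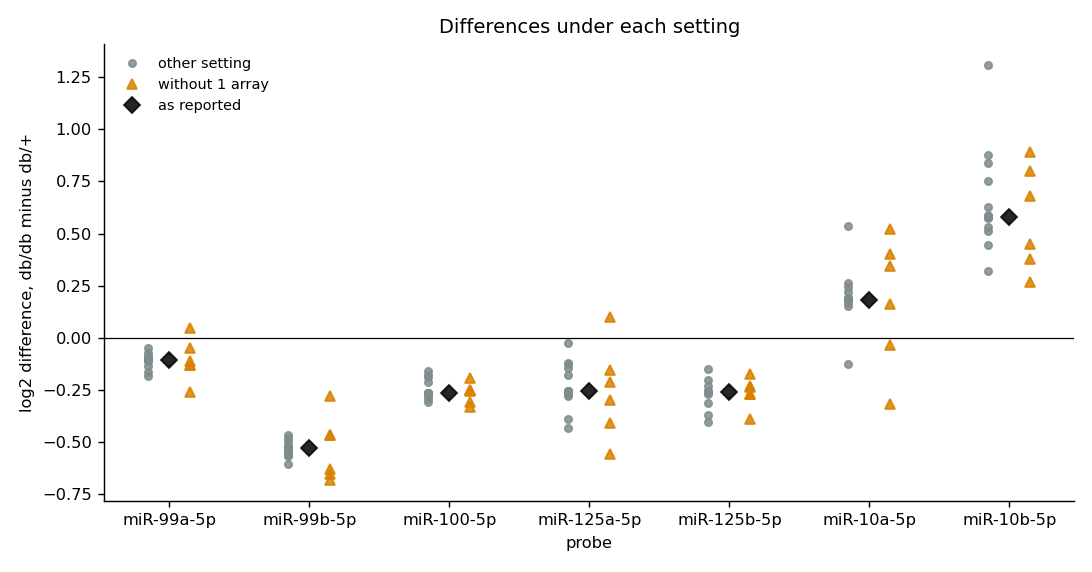
Log2 difference between db/db and db/+ cells (vertical axis) of each member as reported (diamonds), without 1 array (triangles) and under the other settings (circles). MiR-99b-5p, miR-100-5p and miR-125b-5p stay below 0 and miR-10b-5p above 0 in all of them, and miR-10a-5p spans -0.32 to 0.54. Settings that change only the filter, the variance model or the replicate block repeat the reported value.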

How the data were processed

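The 6 scanner files, 1 per sample, give, per the file headers, the median intensity of each of 3968 spots and hold no local background; image software and detection calls are not given in the sources used here. The deposited value table holds linear intensities that the authors had background-subtracted and scaled, as its low values and column medians between 12.2 and 14.8 show, by a method not given in the sources used here. The 6 columns were matched to samples by name, and the scale constant stays unknown. It was used as an alternative, as log2 of the deposited intensity plus 16.

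From the scanner intensities, normexp (offset 50, all spots), quantile normalization over the mouse miRNA spots, log2 and averaging of 2 spots were done with limma 3.58.1 in R 4.3.3, then lmFit and eBayes over all 6 arrays. Pairs of spots correlated between 0.983 and 0.989 and pairs of arrays between 0.928 and 0.984. The steps were tested on simulated data with changes larger than the members' reported differences, so that run does not bear on differences of this size. Detection used only 4 blank spots. Sequences and coordinates are RefSeq's, GRCm38.p6; no build is named for the array. Figures used matplotlib 3.10.9 in Python 3.11.15.

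The members, lists, pairs and tests were chosen with earlier results of these data known. Named probes are the 7 members, their 3p arms, cluster let-7 probes, seed carriers, Hox cluster miRNAs, reported IRE1 substrates, cell type markers and the nearest probe of each member. Alternatives covered normalization, background, offset, filter, variance model, array weights, replicate block and single arrays.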

Additional observations from a re-analysis of the deposited data

How the results depend on the processing

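No member passed under any of the 21 settings. The number of probes passing over the whole array, 0 as reported with limma where 59 had an unadjusted p under 0.05, was 4 with 75th percentile scaling, 1 each with an offset of 16, with the authors' value table, with the first spot only and with the filter set at detection on all 6 arrays, 2 with trend and robust variance, and between 0 and 3 when an array was left out, with 3 without db/db replicate 2. The 75th percentile scaling moved the median of all tested probes to -0.14, where miR-99b-5p had -0.61 and miR-10b-5p 0.44. The members' median was -0.12 with cyclic loess and -0.12 with the first spot only, and lay between -0.31 and -0.049 when an array was left out, at -0.049 without db/db replicate 3. MiR-10a-5p turned to -0.13 with array weights. With an array left out miR-99a-5p lay between -0.26 and 0.047, miR-125a-5p between -0.56 and 0.10 and miR-10a-5p between -0.32 and 0.52, the opposite signs coming without db/+ replicate 3, db/db replicate 3, and db/db replicate 2 or db/+ replicate 3. The cause was not tested.

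Whether replicate numbers pair the samples is not stated in the labels. Deviations of same-numbered samples correlated at -0.039, -0.0028 and 0.033, and those of differently numbered samples between -0.37 and 0.37. With 3 arrays a group these values cannot decide whether the samples were paired. With the replicate number as a block the differences were as reported, and 0 probes passed. The standard error was then 0.16 for miR-10b-5p, against 0.36 as reported. It was 0.22 against 0.45 for miR-10a-5p and 0.20 against 0.33 for miR-125a-5p, and larger than reported for the other members. Arrays split by the spike probes PUC2PM-20B and a3-PUC2PM-20B, a split chosen after seeing the data, put db/db replicate 2 and db/+ replicates 1 and 2 in a bright set. With that split as a block 0 probes passed. MiR-10a-5p had 0.54, with 0.97 within the bright and 0.10 within the dim set, and miR-10b-5p had 0.84, with 0.97 and 0.71. MiR-99a-5p and miR-125a-5p had 0.11 and 0.21 in the bright set and -0.44 and -0.26 in the dim set. MiR-99b-5p, miR-100-5p and miR-125b-5p were below 0 in both sets. Each value within a set rests on an arm of 1 array. The spot-only and spike settings were added after seeing the data. The dim miR-10b-5p and the 3p arms are limited by their signal over the blanks.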
